A study of Mus musculus with 14 samples.

Results

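Acute phase proteins are secreted plasma proteins whose production in the liver shifts within hours to days of infection or tissue injury. The 10 genes described here encode the classical rising members of that response in mice and their closest relatives, namely the serum amyloid A genes Saa1, Saa2, Saa3 and Saa4, the orosomucoid genes Orm1 and Orm2, haptoglobin (Hp), the pentraxins Apcs and Crp, and lipocalin 2 (Lcn2). They were chosen by gene symbol, with every probe of each symbol taken. That gave 12 of the 25697 probes on the array, 3 of them for Hp and 1 for each other gene. All 10 genes passed the detection filter and were tested among 9711 genes.

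The RNA came from whole mouse liver, taken 1 week after hydrodynamic delivery of an expression plasmid, either for interleukin 13 (IL-13) or for a fluorescent marker, EGFP, and each of the 14 samples was hybridised to 1 Illumina mouse BeadChip array. Hydrodynamic delivery is a fast injection of a large volume that brings plasmid DNA into liver cells, and EGFP served as the control. IL-13, a cytokine of type 2 immunity, acts through receptors containing the chain encoded by Il4ra and through the transcription factor STAT6. The comparisons ask how the liver responds to IL-13 and how that response differs in the Alb-Cre animals. Wild-type animals received EGFP (n = 4 arrays) or IL-13 (n = 3). Animals labelled Alb-Cre+ received EGFP (n = 4) or IL-13 (n = 3). The series title places Alb-Cre on a floxed Il4ra background. Alb-Cre is Cre recombinase under the albumin promoter, so deletion is aimed at hepatocytes and leaves other liver cells with their receptor. The labels do not say whether the wild types carried floxed alleles, and they give no age or sex. The labels leave it unsaid whether every array had its own animal, so the tests weigh differences against the spread among these arrays, which may be technical. No probe on the array carries the symbol Il4ra, so the deletion itself is not analysed here.

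Hepatocytes make most circulating acute phase proteins. Interleukin 6 acts on them through STAT3, and interleukin 1 and tumour necrosis factor act through NF-kappaB, with C/EBP factors taking part in both. In whole tissue, fewer cells of a type and less RNA per cell cannot be told apart.

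Several arrays stood apart. Detected probes numbered 11554 to 13261 per array (45.0 to 51.6%), and replicates correlated at 0.978 to 0.993 over all kept probes. Eif2s3y, a Y-linked gene, was detected on 4 arrays, which were wild-type IL-13 replicate 3 and all 3 Alb-Cre IL-13 arrays, and Xist was not detected on those 4. In Alb-Cre liver this split coincided with the plasmid, so the sex of the animals and IL-13 cannot be told apart there. Wild-type IL-13 replicate 3 also held Reg3b, an antibacterial lectin of the gut and pancreas, at a log2 level of 10.07, against 4.15 to 4.83 on the other 13 arrays. That is the brighter Reg3b probe. The other probe, ILMN_2705804, read 4.87 on that array and 4.12 to 4.43 elsewhere. The arrays lay on 2 slides. Slide 1 held 2 arrays of each group, and slide 2 held 2 of each EGFP group and 1 of each IL-13 group, which were the replicates numbered 3.

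The serum amyloid A genes form a cluster on mouse chromosome 7, next to each other in the RefSeq annotation. RefSeq lists the symbol Saa2 as a synonym of Saa1 and the symbol Saa1 as a synonym of Saa2, so the names have been used both ways. Promoter windows of 250 bases upstream of the start site were read from RefSeq (GRCm38.p6) for 8 of the 10 genes, all but Orm1 and Hp. 6 of them are printed 5′ to 3′ on the gene's strand, to show how alike the Saa1 and Saa2 promoters are, how Saa3 and Saa4 differ from them, and where C/EBP core letters lie in Orm2 and Lcn2, which had the largest fold changes. The windows are Saa1 at chr7:46742981-46743230 (minus strand), Saa2 at chr7:46751583-46751832 (plus), Saa3 at chr7:46715677-46715926 (minus), Saa4 at chr7:46732604-46732853 (minus), Orm2 at chr4:63362199-63362448 (plus) and Lcn2 at chr2:32387740-32387989 (minus). Capitals mark TTGCNNAA, the C/EBP core, on either strand, and in Lcn2 also a run of TTC and GAA with 4 bases between them, a spacing that STAT6 prefers.
Saa1: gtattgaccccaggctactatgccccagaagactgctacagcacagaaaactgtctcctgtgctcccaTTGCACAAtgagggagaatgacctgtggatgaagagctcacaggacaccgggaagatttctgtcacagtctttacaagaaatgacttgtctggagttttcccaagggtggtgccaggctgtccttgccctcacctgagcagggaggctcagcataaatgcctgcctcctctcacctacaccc
Saa2: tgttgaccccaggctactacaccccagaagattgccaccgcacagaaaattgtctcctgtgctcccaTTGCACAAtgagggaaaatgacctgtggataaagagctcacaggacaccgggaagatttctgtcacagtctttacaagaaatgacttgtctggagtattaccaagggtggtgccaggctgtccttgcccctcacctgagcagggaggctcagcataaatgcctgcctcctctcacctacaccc
Saa3: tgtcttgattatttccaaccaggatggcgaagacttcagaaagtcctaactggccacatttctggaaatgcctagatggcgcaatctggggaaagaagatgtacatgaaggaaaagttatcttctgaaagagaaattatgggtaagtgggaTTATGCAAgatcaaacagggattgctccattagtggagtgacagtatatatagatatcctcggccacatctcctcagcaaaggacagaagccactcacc
Saa4: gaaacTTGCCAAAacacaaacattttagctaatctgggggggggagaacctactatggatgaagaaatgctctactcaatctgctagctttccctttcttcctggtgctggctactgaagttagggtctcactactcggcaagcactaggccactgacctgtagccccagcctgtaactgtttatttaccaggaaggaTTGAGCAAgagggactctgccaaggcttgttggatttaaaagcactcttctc
Orm2: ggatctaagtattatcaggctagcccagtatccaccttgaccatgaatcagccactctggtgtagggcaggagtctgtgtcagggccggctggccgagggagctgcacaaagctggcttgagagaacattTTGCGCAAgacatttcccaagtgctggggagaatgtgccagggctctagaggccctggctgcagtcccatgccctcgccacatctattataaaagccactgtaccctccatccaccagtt
Lcn2: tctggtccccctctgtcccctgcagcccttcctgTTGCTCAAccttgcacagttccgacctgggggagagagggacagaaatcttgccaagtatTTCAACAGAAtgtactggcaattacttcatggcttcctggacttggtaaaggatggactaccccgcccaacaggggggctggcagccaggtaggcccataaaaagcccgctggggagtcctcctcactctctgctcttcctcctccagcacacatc

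The Saa1 and Saa2 windows were 94.8% identical, with 238 identical positions among 251 aligned, 11 mismatches and 2 gap bases. The other pairs of serum amyloid A windows were 43.8 to 48.5% identical. Saa1 carried the C/EBP core letters at -182 to -175 from the start site and Saa2 at -183 to -176, with the same 8 letters. Saa3 had a match at -99 to -92, Saa4 had 2 matches, Orm2 had 1 at -120 to -113 and Lcn2 had 1 at -216 to -209. That made 6 of the 8 windows, against 9.57% of 32817 RefSeq windows of the same length. The STAT letters TTCNNNGAA were found in Apcs (7.01% of all windows), and the wider STAT6 spacing in Lcn2 at -156 to -147 (5.85%). GGGA and CC with 4 bases between, an NF-kappaB core, was found in none of the 8 (17.6%). These letters were chosen with knowledge of such promoters, and a match is a description of the window alone.

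In wild-type liver, 6 of the 10 genes rose with IL-13 (Lcn2, Orm2, Saa3, Apcs, Orm1 and Hp), Saa4 fell, and Saa1, Saa2 and Crp did not pass the test. Over all 9711 genes tested, 21.5% were higher and 19.2% lower at the same threshold, an adjusted p under 0.05. The median log2 difference of the 10 genes was 1.40, against 0.00077 over all genes. In Alb-Cre liver, 4 of the 10 rose (Orm2, Lcn2, Saa3 and Apcs), none fell, and 7 had an unadjusted p under 0.05. Hp is counted here by its brightest probe, and its other probes, given below, rose in Alb-Cre liver as well. The background there was 11.1% higher and 7.83% lower, and the medians were 1.27 for the 10 genes and -0.02 for all genes. All 10 estimates in Alb-Cre liver were above 0. None of the 10 genes passed the test of a difference between the genotypes' responses.

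**Figure D1:**
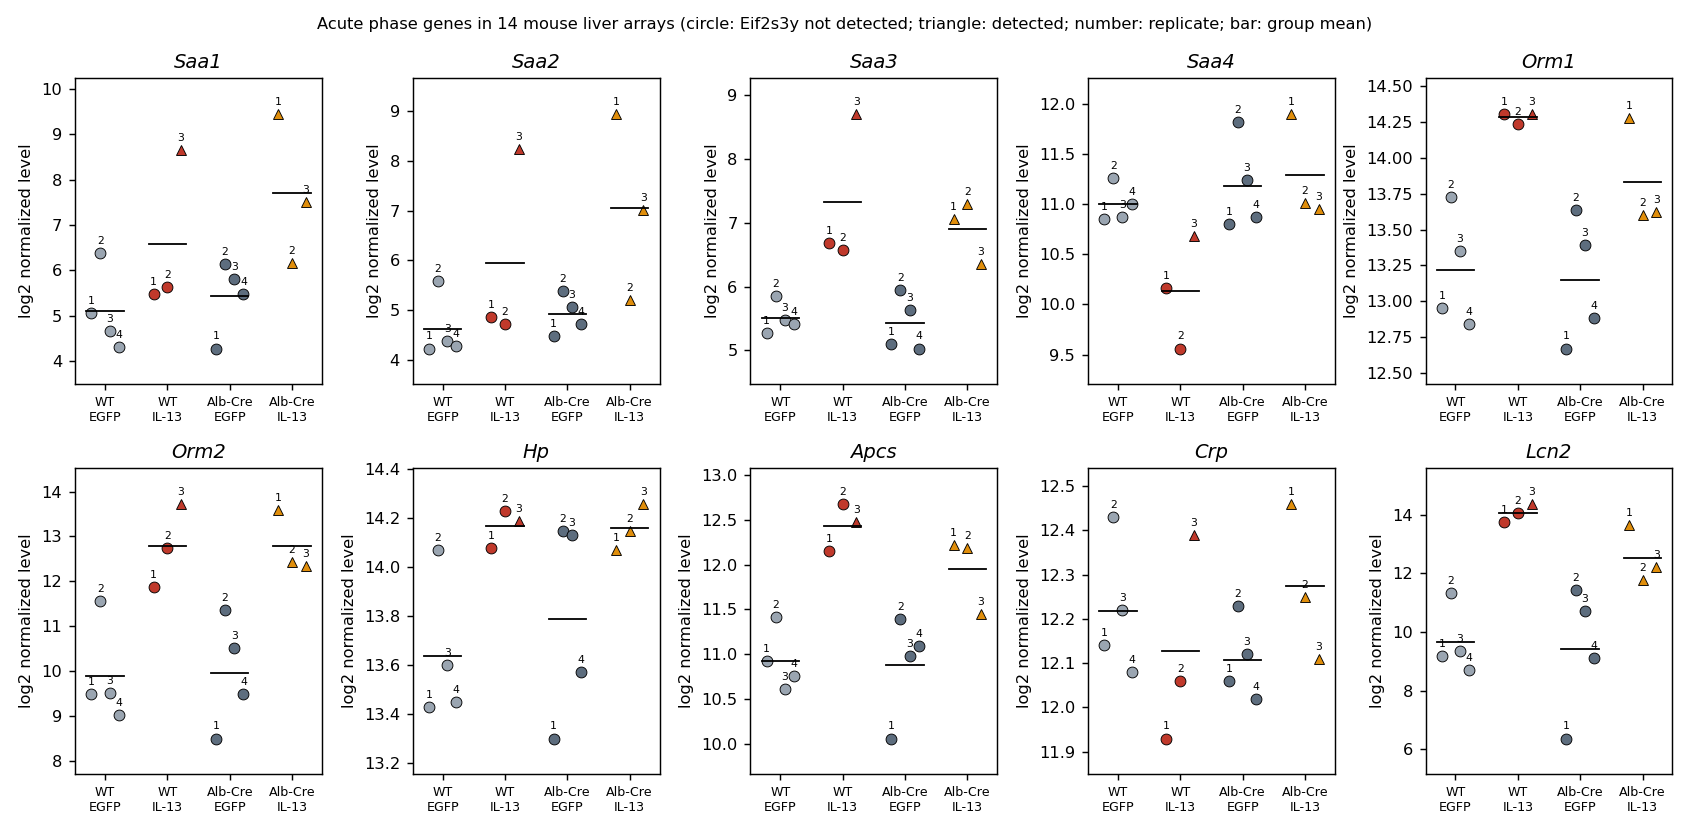
Log2 level of each acute phase gene (normalized, background-corrected intensity, vertical axis) on each array, by group, with points for arrays (triangles where Eif2s3y was detected), replicate numbers beside them, bars for group means and a separate scale per gene. Lcn2 and Orm2 separate IL-13 from EGFP arrays in both genotypes, while Crp stays between 11.93 and 12.46 on all 14 arrays.

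**Figure D2:**
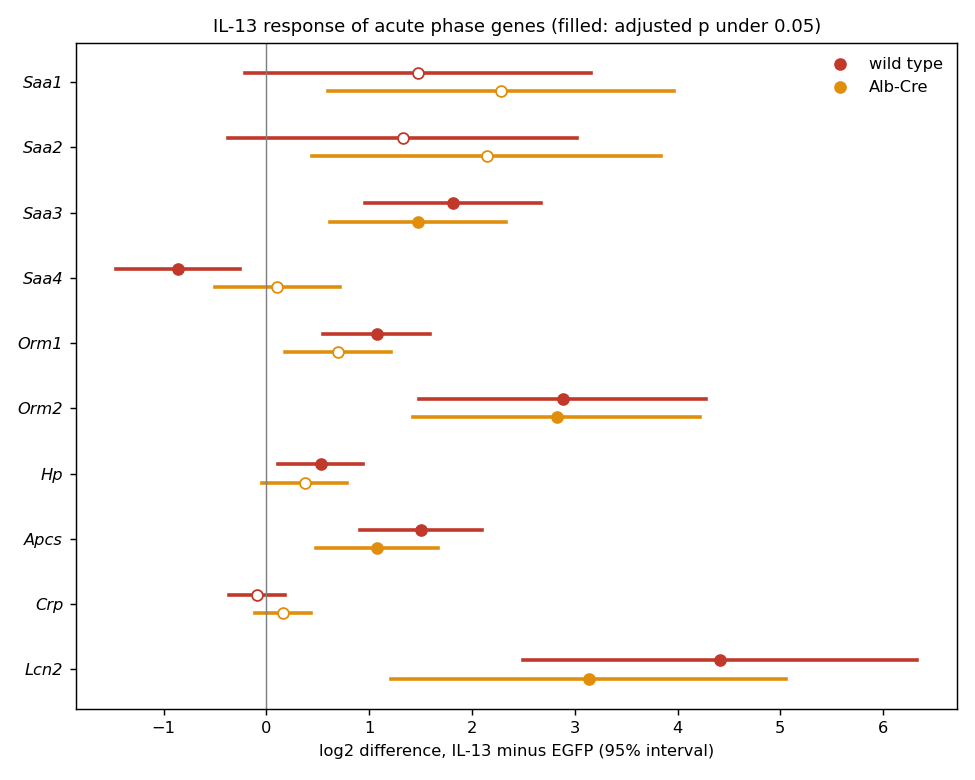
Log2 difference between IL-13 and EGFP (horizontal axis) for each gene in wild-type and Alb-Cre liver, with 95% confidence intervals from limma and filled points for an adjusted p under 0.05. The Saa4 estimates lie on opposite sides of 0, and the intervals of Lcn2, Orm2, Saa1 and Saa2 are the widest.

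Lcn2 showed the widest change. It encodes neutrophil gelatinase-associated lipocalin, an antibacterial protein that traps bacterial iron carriers and is made by stimulated hepatocytes and by neutrophils. In wild-type liver its log2 level was 9.20, 11.33, 9.36 and 8.72 on the EGFP arrays and 13.76, 14.05 and 14.38 on the IL-13 arrays. The Alb-Cre values were 6.37, 11.44, 10.71 and 9.11 under EGFP and 13.64, 11.76 and 12.23 under IL-13. Every IL-13 array lay above every EGFP array of its genotype. The margin in Alb-Cre liver was small, since EGFP replicate 2 at 11.44 came close to IL-13 replicate 2 at 11.76. The log2 difference was 4.41 ± 0.90 (SE; 21.3-fold; adjusted p = 0.000966) in wild-type liver and 3.14 ± 0.90 (8.79-fold; adjusted p = 0.0228) in Alb-Cre liver. Lcn2 intensity ran from 0.732% to 99.9% of the brightest probe of its array, and the part of a ceiling in the top wild-type values was not tested.

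All 3 Alb-Cre IL-13 arrays had less Lcn2 than all 3 wild-type IL-13 arrays, with means of 12.54 ± 0.98 (SD, n = 3) and 14.07 ± 0.31 (n = 3). The estimate was -1.53 ± 0.96 (SE), with a 95% interval from -3.58 to 0.53 and an adjusted p of 0.298, so that the difference did not exceed the spread. That spread was large. The standard deviation of Lcn2 within groups was 1.46, exceeded by 1 of the 9711 genes, and the EGFP arrays of Alb-Cre liver alone spanned 6.37 to 11.44. The Lcn2 increase in Alb-Cre liver lost its call without IL-13 replicate 1 (2.59, adjusted p = 0.103) and without EGFP replicate 4 (3.04, adjusted p = 0.0557).

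Orm2 had the next largest estimate in both genotypes. Orosomucoids, also called alpha-1-acid glycoproteins, are lipocalin-family carriers of drugs and lipids in plasma and standard acute phase reactants. Orm2 stood at 9.48, 11.57, 9.52 and 9.03 on the wild-type EGFP arrays and at 11.88, 12.74 and 13.73 on the wild-type IL-13 arrays. The Alb-Cre levels of Orm2 were 8.50, 11.36, 10.52 and 9.49 under EGFP and 13.59, 12.43 and 12.34 under IL-13. The plasmid groups did not overlap in either genotype, although replicate 2 of each EGFP group lay well above its group. The log2 difference was 2.88 ± 0.66 (SE; 7.37-fold; adjusted p = 0.00221) in wild-type and 2.82 ± 0.66 (7.07-fold; adjusted p = 0.0064) in Alb-Cre liver. The responses differed by -0.06, with a 95% interval from -2.03 to 1.92 that leaves room for a difference of either sign. Orm2 was the gene among the 10 that stayed called in Alb-Cre liver without IL-13 replicate 1 (2.42, adjusted p = 0.0363).

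Orm1, its neighbour on chromosome 4, was already bright under EGFP. Its log2 level was 12.95, 13.73, 13.35 and 12.84 on the wild-type EGFP arrays and 14.31, 14.24 and 14.31 on the wild-type IL-13 arrays, which did not overlap. Alb-Cre liver gave 12.67, 13.64, 13.39 and 12.88 under EGFP and 14.28, 13.60 and 13.62 under IL-13, where EGFP replicate 2 lay within the IL-13 range. Orm1 rose by 1.07 ± 0.24 (SE; 2.10-fold; adjusted p = 0.00216) in wild-type liver. In Alb-Cre liver the estimate was 0.70 ± 0.24 (adjusted p = 0.0577), and without EGFP replicate 2 it was 0.86 (adjusted p = 0.0239). The probe reached 98.7% of the array's brightest probe, and the 3 wild-type IL-13 values spanned only 14.24 to 14.31, and the part of a ceiling was not tested. The Orm1 and Orm2 transcripts are close relatives, and each probe may bind both.

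Saa1 and Saa2 encode the serum amyloid A proteins that travel on high-density lipoprotein, among the most inducible transcripts of mouse liver. Here both were dim, with Saa1 at 4.07% or less of the array's brightest probe, and each passed detection on only part of the arrays (12 of 14 for Saa1 and 10 of 14 for Saa2). Saa1 stood at 5.07, 6.38, 4.66 and 4.31 on the wild-type EGFP arrays and at 5.47, 5.64 and 8.64 on the wild-type IL-13 arrays. In Alb-Cre liver it stood at 4.28, 6.14, 5.81 and 5.49 under EGFP and at 9.45, 6.16 and 7.51 under IL-13. One wild-type IL-13 array, replicate 3, was high, while the other two lay within the EGFP range. In Alb-Cre liver the IL-13 arrays lay above the EGFP arrays, with replicate 2 above them by the narrowest margin.

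The Saa1 difference was 1.48 ± 0.79 (SE; adjusted p = 0.155) in wild-type and 2.28 ± 0.79 (adjusted p = 0.0561) in Alb-Cre liver. Without wild-type IL-13 replicate 3 these were 0.45 (adjusted p = 0.674) and 2.28 (adjusted p = 0.0193), since that array adds to the shared spread. Saa2 gave 4.23, 5.58, 4.39 and 4.28 under EGFP and 4.87, 4.72 and 8.24 under IL-13 in wild-type liver. In Alb-Cre liver Saa2 gave 4.49, 5.38, 5.07 and 4.73 under EGFP and 8.95, 5.21 and 7.02 under IL-13. The same arrays were high for both genes, and the Saa2 probe was detected on 1 of the 4 wild-type EGFP arrays. The Saa2 difference was 1.32 ± 0.80 (SE; adjusted p = 0.208) in wild-type and 2.14 ± 0.80 (adjusted p = 0.0745) in Alb-Cre liver. Without wild-type IL-13 replicate 3 these were 0.18 (adjusted p = 0.867) and 2.14 (adjusted p = 0.0189). Each probe may bind both transcripts, so Saa1 and Saa2 do not count as separate measurements.

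Saa3 encodes a serum amyloid A made in mice by macrophages, fat and other tissues as well as by stimulated liver. Its log2 level was 5.27, 5.86, 5.48 and 5.41 on the wild-type EGFP arrays and 6.68, 6.58 and 8.71 on the wild-type IL-13 arrays. Alb-Cre liver held 5.10, 5.95, 5.63 and 5.03 under EGFP and 7.06, 7.29 and 6.36 under IL-13. The plasmid groups did not overlap in either genotype. Saa3 rose by 1.81 ± 0.40 (SE; 3.52-fold; adjusted p = 0.00185) in wild-type and by 1.47 ± 0.40 (2.78-fold; adjusted p = 0.0173) in Alb-Cre liver. Without wild-type IL-13 replicate 3, again its highest array, the wild-type value was 1.12 (adjusted p = 0.00377). In Alb-Cre liver the call was lost without IL-13 replicate 1 (1.40, adjusted p = 0.0582), without IL-13 replicate 2 (1.28, adjusted p = 0.0787) and without EGFP replicate 4 (1.34, adjusted p = 0.0528).

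Saa4 moved the other way. It encodes the constitutive serum amyloid A, which is made without a stimulus and responds little to inflammation. The wild-type log2 levels were 10.85, 11.26, 10.87 and 11.00 under EGFP and 10.16, 9.56 and 10.68 under IL-13. The Alb-Cre levels were 10.80, 11.82, 11.24 and 10.87 under EGFP and 11.90, 11.01 and 10.95 under IL-13. Every wild-type IL-13 array lay below every wild-type EGFP array, and the Alb-Cre groups overlapped. Saa4 fell by 0.86 on the log2 scale (SE 0.28; adjusted p = 0.0234) in wild-type liver, to a level 1.82-fold lower, and the Alb-Cre estimate was 0.11 ± 0.28 (adjusted p = 0.849).

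Saa4 was also the gene among the 10 that differed between the genotypes under IL-13, at 1.15 ± 0.30 (SE; 2.23-fold higher in Alb-Cre; adjusted p = 0.0125). Its responses differed by 0.97 ± 0.40, with a 95% interval from 0.11 to 1.82, an unadjusted p of 0.0290 and an adjusted p of 0.132. Without wild-type IL-13 replicate 3 that difference was 1.24 (adjusted p = 0.0478). Without wild-type IL-13 replicate 2, the lowest array at 9.56, the fall in wild-type liver was -0.57 (adjusted p = 0.148) and the genotype difference 0.87 (adjusted p = 0.0687). Without Alb-Cre IL-13 replicate 1 the genotype difference was 0.85 (adjusted p = 0.0619). The fall in wild-type liver also lost its call without EGFP replicate 2 (-0.77, adjusted p = 0.0632). Among the 4 arrays on which Eif2s3y was detected, the genotype difference was 0.61 (adjusted p = 0.411), with 1 wild-type array in that comparison.

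Haptoglobin (Hp) binds free haemoglobin and delivers it for clearance by macrophages. Its 3 probes gave different sizes of change. The brightest, ILMN_2944824, stood at 13.43, 14.07, 13.60 and 13.45 on the wild-type EGFP arrays and at 14.08, 14.23 and 14.19 on the wild-type IL-13 arrays. In Alb-Cre liver it stood at 13.30, 14.15, 14.13 and 13.57 under EGFP and at 14.07, 14.15 and 14.26 under IL-13. This probe already held 42.0 to 90.7% of the array's brightest signal, and its Alb-Cre groups overlapped. It rose by 0.53 ± 0.19 (SE; 1.44-fold; adjusted p = 0.0396) in wild-type liver and gave 0.37 ± 0.19 (adjusted p = 0.212) in Alb-Cre liver. Leaving out any wild-type array but EGFP replicate 2 ended the call in wild-type liver, with adjusted p between 0.0585 and 0.108.

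The other probes of Hp gave larger differences. ILMN_2668509 gave 11.97, 13.14, 12.13 and 12.10 under EGFP and 13.84, 13.88 and 14.26 under IL-13 in wild-type liver. In Alb-Cre liver ILMN_2668509 gave 11.90, 13.10, 12.89 and 12.50 under EGFP and 13.97, 13.81 and 13.55 under IL-13. The plasmid groups did not overlap in either genotype. In the fit over 14109 probes, its difference was 1.66 ± 0.28 (SE; adjusted p = 1.82e-04) in wild-type and 1.18 ± 0.28 (adjusted p = 0.00764) in Alb-Cre liver. ILMN_2668510 gave 1.54 ± 0.26 (adjusted p = 1.97e-04) and 1.08 ± 0.26 (adjusted p = 0.0085). By these probes haptoglobin rose in both genotypes. The difference between the responses was -0.49 for ILMN_2668509, with a 95% interval from -1.32 to 0.35, and did not pass for any of the 3 probes.

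**Figure D3:**
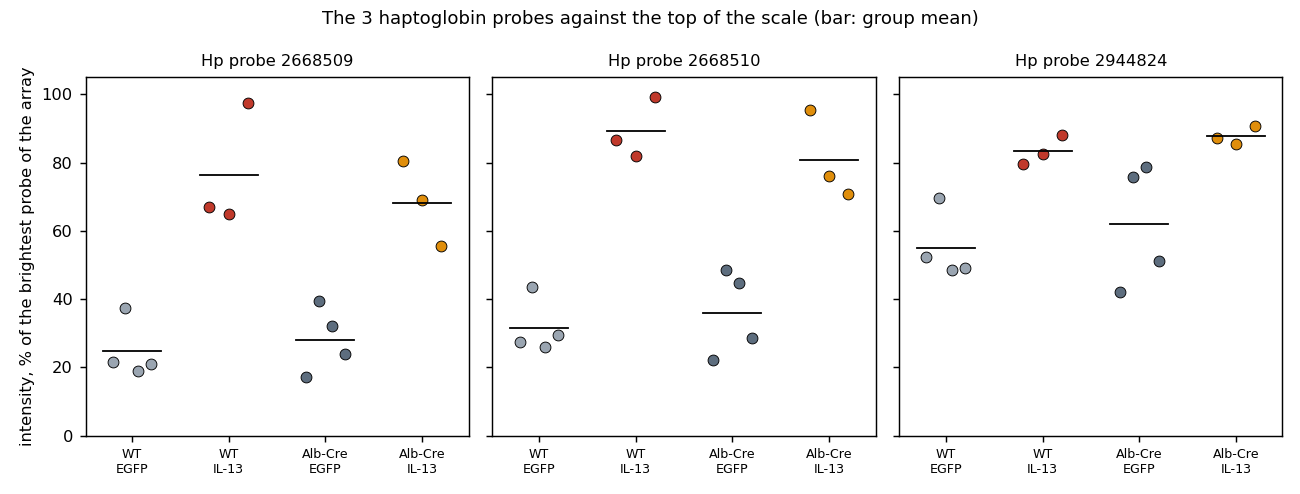
Intensity of the 3 haptoglobin probes as a percentage of the brightest probe of the array (vertical axis), by group, with points for arrays and bars for group means. ILMN_2944824, which stood for the gene, lies at 42.0% or more on every array, while ILMN_2668509 goes down to 17.1%.

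The pentraxins parted. Apcs encodes serum amyloid P component, the pentraxin that serves as an acute phase reactant in mice. Its log2 level was 10.92, 11.42, 10.61 and 10.76 on the wild-type EGFP arrays and 12.15, 12.68 and 12.47 on the wild-type IL-13 arrays. The Alb-Cre arrays read 10.06, 11.39, 10.98 and 11.09 under EGFP and 12.22, 12.19 and 11.45 under IL-13. The plasmid groups did not overlap in either genotype, although Alb-Cre IL-13 replicate 3 was only just above EGFP replicate 2. Apcs rose by 1.50 ± 0.28 (SE; 2.83-fold; adjusted p = 0.000437) in wild-type and by 1.07 ± 0.28 (2.11-fold; adjusted p = 0.0128) in Alb-Cre liver. In Alb-Cre liver the call was lost without IL-13 replicate 1 (0.94, adjusted p = 0.0586) and without IL-13 replicate 2 (0.96, adjusted p = 0.0597).

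Crp encodes C-reactive protein, the leading acute phase pentraxin of humans, which responds weakly in mice. Its log2 level was 12.14, 12.43, 12.22 and 12.08 on the wild-type EGFP arrays and 11.93, 12.06 and 12.39 on the wild-type IL-13 arrays. The Alb-Cre arrays read 12.06, 12.23, 12.12 and 12.02 under EGFP and 12.46, 12.25 and 12.11 under IL-13. The groups overlapped throughout. The difference was -0.09 ± 0.13 (SE; 95% interval -0.36 to 0.18) in wild-type and 0.16 ± 0.13 (interval -0.11 to 0.43) in Alb-Cre liver. The wild-type estimate depended on the scaling of the arrays, since it was -0.40 (adjusted p = 0.0208) when arrays were scaled to a common median and -0.36 (adjusted p = 0.0155) in the authors' log2 values.

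The arrays themselves were also counted, without a model. In wild-type liver 6 of the 10 genes were higher on every IL-13 array and 1 was lower, where 22.7% and 20.7% of all genes tested were. In Alb-Cre liver 5 of the 10 were higher on every IL-13 array, where 15.1% of all genes were. The fifth was Saa1, which did not pass the test. Hp was counted by its brightest probe, and its other probes were also higher on every Alb-Cre IL-13 array.

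The genotypes were compared under each plasmid. Under EGFP none of the 10 differed between Alb-Cre and wild type, none had an unadjusted p under 0.05, and the background was 0% in either direction. Their estimates there ran from -0.25 for Lcn2 to 0.32 for Saa1. Under IL-13 the estimates were -1.53 for Lcn2, 1.15 for Saa4, 1.13 for Saa1 and 1.12 for Saa2, and lay between -0.48 and 0.14 for the other genes. Only Saa4 passed the test there, where 10.7% of all genes were higher and 11.2% lower in Alb-Cre liver. Saa4 was higher on every Alb-Cre IL-13 array and Lcn2 lower on every one, where 15.9% and 17.2% of all genes were. In the test of the difference between responses, 6.65% of all genes were higher and 6.50% lower, and limma called none of the 10 genes, with only Saa4 under an unadjusted p of 0.05. The intervals were wide for the most variable genes. For Lcn2 the responses differed by -1.28 (95% interval -3.99 to 1.44), for Saa1 by 0.80 (-1.58 to 3.18) and for Apcs by -0.43 (-1.27 to 0.41).

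Values within slides differed in size. With slide as a block the counts were 7 called in wild-type and 4 in Alb-Cre liver, as without it. Within slide 1 the wild-type responses were 3.64 for Lcn2, 1.79 for Orm2, 1.06 for Saa3, 1.24 for Apcs, 0.94 for Orm1, 0.40 for Hp and -1.19 for Saa4, and 2 of the 10 genes, Saa3 and Apcs, were called, as were 2669 of all genes. Within slide 2, with a single IL-13 array per genotype assumed to vary like the other groups, they were 5.34, 4.45, 3.26, 1.78, 1.22, 0.66 and -0.26 in the same order. That IL-13 array was wild-type replicate 3, and on that slide Saa1 (4.15) and Saa2 (3.90) were also called. All 7 genes kept their direction on both slides. In Alb-Cre liver the responses within slide 1 were 3.79 for Lcn2, 3.08 for Orm2, 1.65 for Saa3 and 1.48 for Apcs, and within slide 2 they were 2.32, 2.34, 1.03 and 0.42. The calls in Alb-Cre liver numbered 1 within slide 1 and 5 within slide 2, where 851 and 620 of all 9711 genes were called. The difference in Saa4 between the genotypes under IL-13 was 1.60 (adjusted p = 0.0413) within slide 1 and 0.27 (adjusted p = 0.531) within slide 2.

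The Alb-Cre calls depended on whether Eif2s3y detection entered the model. With it as a covariate, whose effect rests on the contrast among the 3 IL-13 arrays of wild-type liver, none of the 10 genes was called in Alb-Cre liver. Calls over all 9711 genes went from 1840 to 815 in that fit. Lcn2 was then at 2.66 (adjusted p = 0.401), Orm2 at 1.40 (adjusted p = 0.539) and Apcs at 1.02 (adjusted p = 0.285), and Saa3 turned to -0.60 (adjusted p = 0.465). The covariate's effect sets wild-type IL-13 replicate 3 against the other wild-type IL-13 arrays. The fit therefore cannot tell sex from anything else particular to that array. The part of sex in the Alb-Cre responses was not tested.

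All of these genes but Crp varied more between replicates than most genes. The residual standard deviation within groups was 1.46 for Lcn2, 1.29 for Saa2, 1.28 for Saa1 and 1.06 for Orm2, and 16 of the 9711 genes varied more than Orm2. It was 0.64 for Saa3, 0.44 for Saa4, 0.43 for Apcs, 0.37 for Orm1 and 0.29 for Hp. The Hp value belongs to its brightest probe, ILMN_2944824. In wild-type EGFP liver the standard deviation was 0.30 for that probe, 0.54 for ILMN_2668509 and 0.43 for ILMN_2668510. Crp stood at 0.17, and 56.5% of all genes varied more.

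The arrays that were high were largely the same ones for all 10 genes. Replicate 2 was the highest array for 10 of the 10 genes in wild-type EGFP liver and for 10 of 10 in Alb-Cre EGFP liver. Alb-Cre EGFP replicate 1 was the lowest for 8 of 10, wild-type IL-13 replicate 3 the highest for 7 and Alb-Cre IL-13 replicate 1 the highest for 8. Saa4 and Crp took part in this shared variation although they did not rise with IL-13. Over the 45 pairs of these genes, the deviations from the group means correlated with a median r of 0.67 (0.24 to 0.96) across the 14 arrays, and all 45 were positive. Among the 8 EGFP arrays the median was 0.87 (0.60 to 0.96). The pair Saa1 and Saa2 had the highest r over the 14 arrays and Saa2 and Apcs the lowest. These are descriptions, since all genes shared the same arrays. Without replicate 2 of both EGFP groups, 7 genes were called in wild-type and 5 in Alb-Cre liver, with Orm1 (0.86, adjusted p = 0.0145) as the fifth.

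**Figure D4:**
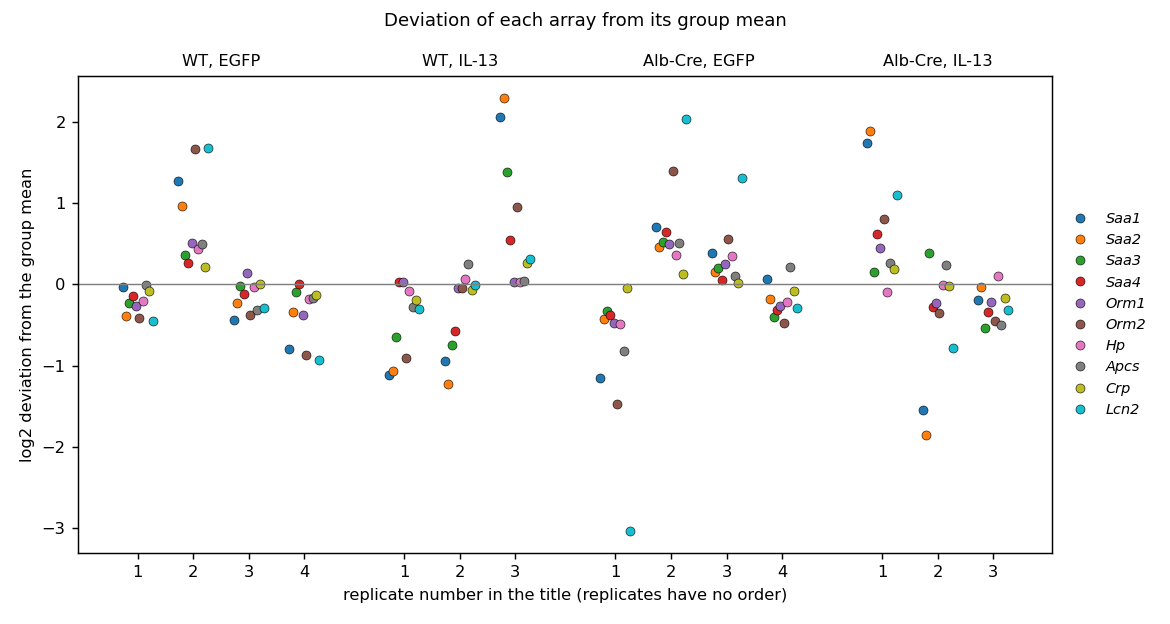
Deviation of each acute phase gene's log2 level from its group mean (vertical axis), by replicate within each of the 4 groups, with 1 colour per gene. Replicate 2 of both EGFP groups lies above 0 for all 10 genes, and the replicates have no order.

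Other genes followed the same array-to-array pattern. The closest to Lcn2 by correlation of deviations over 14 arrays was Nnmt, which encodes nicotinamide N-methyltransferase (r = 0.96). The closest to Saa2 were C6, a complement component, and Nfkbiz, an NF-kappaB cofactor (both 0.96). Saa3 was closest to Scara5 and the coagulation factor gene F9 (both 0.95), Saa4 to Nucks1 (0.97) and plasminogen, Plg (0.93), and Crp to the zinc transporter gene Slc39a14 (0.95). Saa1 was closest to Gnat1 (0.94) and Ldhd (0.93), Orm2 to Apof and Scarb1 (both 0.92), and Apcs to Piwil1 and the metallothionein gene Mt2 (both 0.89). The closest to Orm1 were Catsperd and Zmat1 (both 0.89), and to Hp they were Ahi1 and Afg3l1 (both 0.87). The levels themselves, with group differences left in, correlated from -0.64 for Orm1 with Zmat1 to 0.92 for Hp with Ahi1. Without wild-type IL-13 replicate 3, the deviations of Saa3 and Scara5 correlated at 0.83.

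Of 25 other genes listed as rising acute phase reactants, 23 were tested, and 12 rose and 2 fell in wild-type liver with a median of 0.38, where 21.5% of all genes rose and 19.2% fell. Vnn1 among them passed the detection filter through the wild-type IL-13 arrays. In Alb-Cre liver 4 rose and 2 fell with a median of 0.23, near the shares over all genes (11.1% and 7.83%). Mbl2, a mannose-binding lectin, fell by 3.07 on the log2 scale (adjusted p = 1.61e-10) in wild-type liver and by 0.66 (adjusted p = 0.00352) in Alb-Cre liver, and its responses differed by 2.40 (adjusted p = 2.5e-06). Serpina1a, an alpha-1-antitrypsin gene, fell by 1.32 (adjusted p = 0.00129) in wild-type liver and gave 0.74 (adjusted p = 0.08) in Alb-Cre liver, a difference of 2.06 (adjusted p = 0.00302). Agt, which encodes angiotensinogen, rose by 0.99 (adjusted p = 2.22e-05) in wild-type liver and gave 0.23 (adjusted p = 0.263) in Alb-Cre liver. Cd14 stood at log2 levels of 5.38 to 5.95 under EGFP and 11.27 to 12.58 under IL-13 in wild-type liver. Its Alb-Cre levels were 5.17 to 5.74 under EGFP and 5.95 to 6.50 under IL-13. Lbp stood at 8.90 to 9.94 and 11.02 to 11.57 in wild-type liver, and at 9.02 to 9.89 and 9.59 to 10.65 in Alb-Cre liver. Serpina3n, a protease inhibitor, rose by 1.12 in wild-type and by 0.40 in Alb-Cre liver, and its responses differed by -0.72 (adjusted p = 0.0122). The difference between responses passed for 6 of these 23 genes, 2 higher and 4 lower in Alb-Cre liver, where 6.65% and 6.50% of all genes were. Without Alb-Cre IL-13 replicate 1, 0 of the 23 rose and 1 fell in Alb-Cre liver.

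Among 11 tested genes that usually fall in the acute phase, 4 fell and 2 rose in wild-type liver, and 0 fell and 1 rose in Alb-Cre liver. Over all genes 19.2% fell and 21.5% rose in wild-type liver, and 7.83% fell and 11.1% rose in Alb-Cre liver. Serpina6, the plasma carrier of corticosteroids, fell by 5.20 on the log2 scale in wild-type liver (adjusted p = 1.15e-07) and stood at -0.76 ± 0.43 (SE; adjusted p = 0.247) in Alb-Cre liver. Fetub, a relative of fetuin A, rose in both, by 1.31 and 0.83. Of 18 tested genes of the cytokine signal upstream, 8 rose and 3 fell in wild-type liver, and 1 rose and 2 fell in Alb-Cre liver. Apart from the 8 that rose in wild-type liver, these counts lay near or below the same shares over all genes. Il6st and Osm passed the detection filter through the wild-type IL-13 arrays. Without wild-type IL-13 replicate 3, 5 rose and 4 fell in wild-type liver, and 4 rose and 2 fell in Alb-Cre liver. Il1r1, the interleukin 1 receptor, rose by 0.87 (adjusted p = 8.04e-05) in wild-type liver, while Il1rap, its partner chain, fell by 1.56 (adjusted p = 1.29e-06). Lifr, the receptor of leukaemia inhibitory factor, fell by 1.38 (adjusted p = 6.53e-05). In Alb-Cre liver Il1r1 gave 0.16 (adjusted p = 0.461) and Lifr -0.07 (adjusted p = 0.871), and Il1rap fell by 0.56 (adjusted p = 0.0202). Il1b, which encodes interleukin 1 beta, rose by 1.51 ± 0.27 (adjusted p = 0.000812) in Alb-Cre liver and gave -0.10 ± 0.27 (adjusted p = 0.809) in wild-type liver, and these responses differed by 1.61 (adjusted p = 0.0113). The genes for interleukin 6 and tumour necrosis factor, Il6 and Tnf, did not pass the detection filter.

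Markers of cell types were set beside the shares over all genes. In wild-type liver 21.5% of all genes rose and 19.2% fell, and in Alb-Cre liver 11.1% rose and 7.83% fell. Of 11 tested neutrophil markers, 9 rose and none fell in each genotype, with medians of 0.95 and 1.15. None passed the test of a difference between the responses, where 6.65% of all genes were higher and 6.50% lower. The summed level of the 11 markers on the linear scale was 295 to 558 in wild-type EGFP liver and 1428 to 3029 in wild-type IL-13 liver. It was 282 to 404 in Alb-Cre EGFP liver and 1067 to 2400 in Alb-Cre IL-13 liver. S100a8 was the brightest of these markers on every array, at a log2 level of 9.82 to 11.04 in wild-type IL-13 liver. The sums therefore follow S100a8 more than the other markers. The plasmid groups overlapped for Csf3r and Mmp9 in both genotypes. Cxcr2 and Mmp8 were below the detection filter, and Ly6g had no probe. Mpo and Camp were detected on IL-13 arrays only, and Ngp and Cxcr4 mostly there. These markers passed the detection filter through the groups where they were high, so their rise is not independent of the filter. Lcn2 is also a neutrophil granule gene, and the part of neutrophils in its change was not tested. Of 4 tested macrophage markers, 1 rose and 2 fell in wild-type liver and 1 rose in Alb-Cre liver. Their summed level was 611 to 811 in wild-type EGFP and 284 to 421 in wild-type IL-13 liver, and 676 to 850 and 497 to 811 in Alb-Cre liver. Of the 8 hepatocyte markers, Alb, Apoa1, Ttr and Ahsg are also on the list of genes that usually fall in the acute phase. These lists are therefore not separate observations. The 8 markers included 5 that fell in wild-type liver. None was called in Alb-Cre liver, which is near the shares over all genes there. The summed level of these markers was 53531 to 60256 in wild-type IL-13 liver against 69562 to 72937 under EGFP. In Alb-Cre liver it was 66679 to 69526 under IL-13 and 68008 to 77338 under EGFP. Of 3 tested intestine or pancreas genes, 1 rose and 1 fell in wild-type liver and 1 fell in Alb-Cre liver. Reg3b and Reg1 passed the detection filter through IL-13 arrays. The macrophage list and the intestine or pancreas list are too short to set against the shares over all genes. The adipocyte marker Lep did not pass the test, and Adipoq, Retn and Plin1 were below the detection filter.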

How the data were processed

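RNA of 14 whole-liver samples was measured on Illumina BeadChips. For each array the deposited table gives linear probe intensity values with their detection p-value, per the file headers. The submitters' processing notes name GenomeStudio 2011.1. The authors also deposited a log2 table, which proved to be the same intensities after scaling every array to a median of 500. Other steps before deposit are not given in the sources used here.

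In R 4.3.3, limma 3.58.1 estimated background from the detection p-values, applied normexp with an offset of 16, quantile normalization and log2 (neqc). Probes with detection p under 0.05 on at least 3 arrays were kept, 14109 in all. The brightest kept probe stood for each of 9711 genes, and probe names came from the platform's gene table. No symbol of the 10 genes changed in a RefSeq table of GRCm38.p6. A log2 level is the normalized log2 intensity. A fold is 2 to the power of the log2 difference.

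One limma model (lmFit and eBayes) with 4 group means, 1 spread per gene over all arrays and 10 residual degrees of freedom gave 5 two-sided contrasts. Adjusted p-values are Benjamini-Hochberg over all 9711 genes, and for the Hp probes over 14109 probes. The model was tested on simulated data. Alternatives covered the authors' log2 values, background, normalization, the detection filter, probes per gene, slide, replicate number, Eif2s3y detection, the arrays fitted, the variance model and each replicate left out. A pair of alternatives, the arrays with Eif2s3y alone and the fit without replicate 2 of both EGFP groups, were added after seeing the data.

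Samples were grouped by title. The descriptions number the replicates of wild-type IL-13 liver differently from the titles. Genes beyond the 10 came from fixed lists, taking those with the smallest p, or by the highest correlation of deviations from group means. The 10 genes, the lists and the motifs were chosen with earlier results of these data known. Array number limits the precision.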

Additional observations from a re-analysis of the deposited data

Results flagged for a closer look

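Saa2 in wild-type EGFP replicate 2 lay far from the other arrays of its group, at a log2 level of 5.58 against 4.23, 4.28 and 4.39. Its gap to the nearest array was 0.881 of the group's range, above Dixon's 95% critical value for 4 samples. It was also the only array of that group on which the Saa2 probe was detected. Each of the other 9 acute phase genes was highest on this array too. The haptoglobin (Hp) probe ILMN_2668509 had a like gap there, at 13.14 against 11.97, 12.10 and 12.13, a gap of 0.862 of the range. Such gaps also arise by chance in some groups, and many groups were examined.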

How the results depend on the processing

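In wild-type liver 7 of the 10 genes were called, 6 higher and 1 lower, as were 3952 of all genes. Alternatives that used both slides gave 5 to 7, and slide 1 alone gave 2 (2669 of all genes). The genes called were not always the same. Without the detection filter 5 were higher and 0 lower (3831 over all genes), so the Saa4 fall was not called. The authors' values (3316) and median scaling (3408) each gave 5 higher and 2 lower, with Crp among the lower. Leaving out 1 array gave 5 to 7. In Alb-Cre liver 4 were called. The authors' log2 values gave 2, no detection filter 2, slide 1 alone 1 and the Eif2s3y covariate 0, while median scaling gave 6 and the mean over probes and slide 2 alone 5 each. Leaving out 1 array gave 1 to 6. For the difference between responses 0 were called (1277 over all genes), 1 with the Eif2s3y covariate (890), and 0 to 1 when 1 array was left out. Under IL-13 1 gene differed between genotypes (2130 over all genes), 0 with only the groups compared (1235), and 0 to 2 when 1 array was left out. Slide 2 alone and the Eif2s3y arrays alone leave 1 array in a group, so their calls are not counted here. With the Eif2s3y covariate the gene called was Saa3, at -1.81, in place of Saa4. That estimate sets the Alb-Cre IL-13 arrays, at 6.36 to 7.29, against wild-type IL-13 replicate 3 alone, at 8.71. The other wild-type IL-13 arrays stood at 6.68 and 6.58. Under EGFP every alternative gave 0. The direction turned for Saa3 in Alb-Cre liver with the Eif2s3y covariate (-0.60) and, within slide 2, for the response differences of Saa1 (-2.30) and Saa2 (-1.78) and their genotype differences under IL-13 (-1.13 and -1.21). Within slide 2 the IL-13 groups were wild-type replicate 3 and Alb-Cre replicate 3 alone. Saa1 stood at 8.64 and 7.51 on them, and Saa2 at 8.24 and 7.02. These genotype differences thus set 1 array against 1. The Saa3 turn with the covariate rests on the same wild-type array. What set that array apart was not tested. The Hp call in wild-type liver was lost with the authors' values (0.49, adjusted p = 0.108) and median scaling (0.46, adjusted p = 0.105).

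Same-numbered samples did not deviate together in every pair, with r from -0.12 to 0.28 (the highest for replicate 2 of the EGFP groups), and best matched their own number in 3 of 6, 3 of 6, 5 of 8 and 2 of 6 samples. With replicate number as a block, the replicate block gave 7, 4, 0, 1 and 0 calls, as without it. Saa1 and Saa2 were near background on several arrays, which limits their precision.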
